A study of Mus musculus with 6 samples.

Results

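The cells described here are mouse embryonic stem cells with a knockout of the transcription factor Oct1 (encoded by Pou2f1; genotype label Oct1_cKO), taken on day 3 and on day 6 of a culture steered towards mesoderm. They were chosen as all cell barcodes of the 2 Oct1_cKO libraries of day 3 and day 6 with at least 1000 detected genes and at most 10% of UMIs from mitochondrial genes. UMIs, unique molecular identifiers, count captured RNA molecules. This left 1026 cells of 1264 barcodes on day 3 (81.2%) and 1650 of 2530 on day 6 (65.2%), together 2676 of the 7096 cells that pass the same limits in the series. The series holds 6 libraries of single-cell RNA sequencing by 5′ tags, 1 for each genotype (Parental and Oct1_cKO) at each of 3 stages: the stem cells themselves, day 3 and day 6. Cells of both genotypes grew on 0.1% gelatin, first for 2 days in N2B27 medium with Bmp4 and then for 4 days in a DMEM-based medium with Rspo3, which strengthens Wnt signals, plus the BMP receptor inhibitor LDN-193189. Day 3 therefore falls early in the second medium and day 6 at its end, and both libraries of a genotype had been through the same first medium. The labels name neither the deleted part of Oct1, nor the cell line, nor whether it was 1 clone, nor how recombination was started, and they name no repeat culture. Each day is 1 library, so the differences below carry no test across samples: intervals are exact 95% intervals for counting error only, and time, culture and library cannot be told apart.

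OCT1 is a POU-family transcription factor that, like the pluripotency factor OCT4, binds a short DNA sequence called the octamer. In the embryo, pluripotent epiblast cells that receive Wnt, Nodal and BMP signals pass through the primitive streak, become presomitic mesoderm under Wnt and FGF, and are then cut into somites, the blocks that give rise to muscle, dermis and vertebrae. Epiblast that does not pass through the streak forms ectoderm: neural tissue where BMP is blocked, and surface ectoderm, with its keratins, where BMP acts. The question the day 3 to day 6 step addresses is how far cells labelled Oct1_cKO go along these routes.

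The level of a gene is given as CPM, its UMIs per 1000000 UMIs summed over all kept cells of a library; such a sum does not tell more cells with a gene from more RNA of it per cell. Where a pair of levels is given, day 3 comes first and day 6 second. The kept cells held 84128627 UMIs on day 3 and 68286951 on day 6, but the day 6 cells were shallower, with a median of 30925 UMIs (quartiles 6287 and 60250.8) against 79002.5 (quartiles 61834.5 and 100142). On day 6, 558 cells (33.8%) held under 10000 UMIs, against 34 on day 3, and 527 cells (31.9%) had under 1% mitochondrial UMIs, against 161 (15.7%). Those 527 cells carried 6.58% of the day 6 UMIs, so they weigh little in the CPM but much in shares of cells. No barcode occurred in both libraries. A doublet caller marked 2 cells on day 3 and 1 on day 6, too few to have worked, so doublets remain. Free RNA can reach cells that do not express a gene. On day 6 Krt18 stood at 524 CPM in a small cluster of pluripotent-like cells, and the parts of free RNA, of doublets and of the cells' own RNA in such levels were not tested. The median gene was 0.26 higher at day 6 on the log2 scale, and other scalings that centre this median near 0 call more genes lower, as given with the counts.

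Of 9835 genes with at least 5 CPM on either day, 2266 (23%) were at least 2-fold higher at day 6 and 759 (7.72%) at least 2-fold lower in the Oct1-deficient cells. Every count of higher or lower list members below is to be read beside these 2 shares. Higher genes made up 74.9% of the calls; with edgeR's TMM factors they were 58.3% (1683 higher, 1202 lower) and with median-of-ratios size factors 56.8% (1636 higher, 1243 lower). The targeted gene Pou2f1 itself was read at 12.6 and 16.04 CPM on days 3 and 6 in the Oct1_cKO libraries and at 28.3 and 30.9 CPM in the parental ones. Tags from outside the deleted part say nothing about the deletion, and the labels do not give that part. The words Oct1-deficient and without Oct1 thus stand for the label Oct1_cKO here, and the loss of OCT1 protein was not measured.

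The genes furthest above their day 3 level fell into a few kinds. Meox1, a homeodomain factor of forming somites (chromosome 11, 101877510 to 101894374, minus strand, build mm10), had 1 UMI on day 3 and 40.2 CPM on day 6, a log2 ratio of 11.72 (95% interval 9.24 to 17.03). Vnn1, a cell-surface pantetheinase, had 2 UMIs on day 3 and 91.3 CPM on day 6, where 38.5% of cells carried it. Among contractile genes, Acta2, the smooth muscle actin (chromosome 19, 34241090 to 34255590, minus strand), stood at 0.987 and 286 CPM and its skeletal counterpart Acta1 at 1.296 and 113 CPM. The fast skeletal troponin gene Tnni2 stood at 0.107 and 43.8 CPM. Among epithelial genes, Krt7 (chromosome 15, 101411043 to 101430313, plus strand) stood at 0.8202 and 245 CPM, a log2 ratio of 8.23 (95% interval 7.88 to 8.59), and Krt18 (chromosome 15, 102028180 to 102032027, plus strand) at 51.2 and 2177 CPM, a log2 ratio of 5.41 (95% interval 5.37 to 5.45). Both encode keratins of simple epithelia. The membrane protease gene Tmprss2 was at 0.309 and 53.3 CPM and the apical raft protein gene Mal at 0.202 and 81.8 CPM. The signalling ligand genes Wnt6 (chromosome 1, 74771892 to 74785322, plus strand) and Tgfb2 stood at 6.91 and 511 CPM and at 1.01 and 113 CPM, respectively. H19, the imprinted long noncoding RNA, was at 2.31 and 344 CPM, the small heat shock chaperone gene Cryab at 6.3 and 622 CPM, and Pmp22, a membrane protein first known from myelin, at 2.27 and 170.2 CPM. For the 15 genes furthest above, the counting intervals lie far from 0 on the log2 scale, the widest being that of Meox1 because its day 3 level rests on a single UMI.

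The genes furthest below their day 3 level were largely those of pluripotent cells. Pou5f1, which encodes OCT4 (chromosome 17, 35506018 to 35510772, plus strand), stood at 489 and 8.57 CPM, a log2 ratio of −5.84 (95% interval −5.96 to −5.72), and the share of cells with any Pou5f1 UMI was 98.3% and 7.82%. Tdgf1 (Cripto, the Nodal co-receptor) was at 174 and 2.42 CPM, Utf1 at 329.6 and 9.53 CPM and the Nodal inhibitor gene Lefty1 at 77.4 and 2.27 CPM. Tdh, the threonine dehydrogenase that mouse stem cells depend on, stood at 232 and 5.99 CPM, and the hormone genes Trh and Apela at 486 and 8.05 CPM and at 192 and 4.66 CPM, respectively. Pim2, a kinase gene, was at 144 and 2.18 CPM, the phospholipase gene Pla2g1b at 92.98 and 1.36 CPM, and Platr10, a noncoding RNA of pluripotent cells, at 45.3 and 0.761 CPM. Olig2 and Olig1, transcription factor genes best known from oligodendrocytes, stood at 44.8 and 0.395 CPM and at 45.6 and 0.527 CPM, respectively, and 79.6% of day 3 cells had an Olig2 UMI against 0.545% on day 6. Nkx1-2, a gene of the caudal epiblast beside the streak, stood at 36.7 and 0.41 CPM. Mgp, a secreted matrix protein, and Spp1, osteopontin, stood at 102 and 0.117 CPM and at 237 and 8.85 CPM, respectively; on day 3 they came mostly from 1 cluster of cells.

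**Figure D1:**
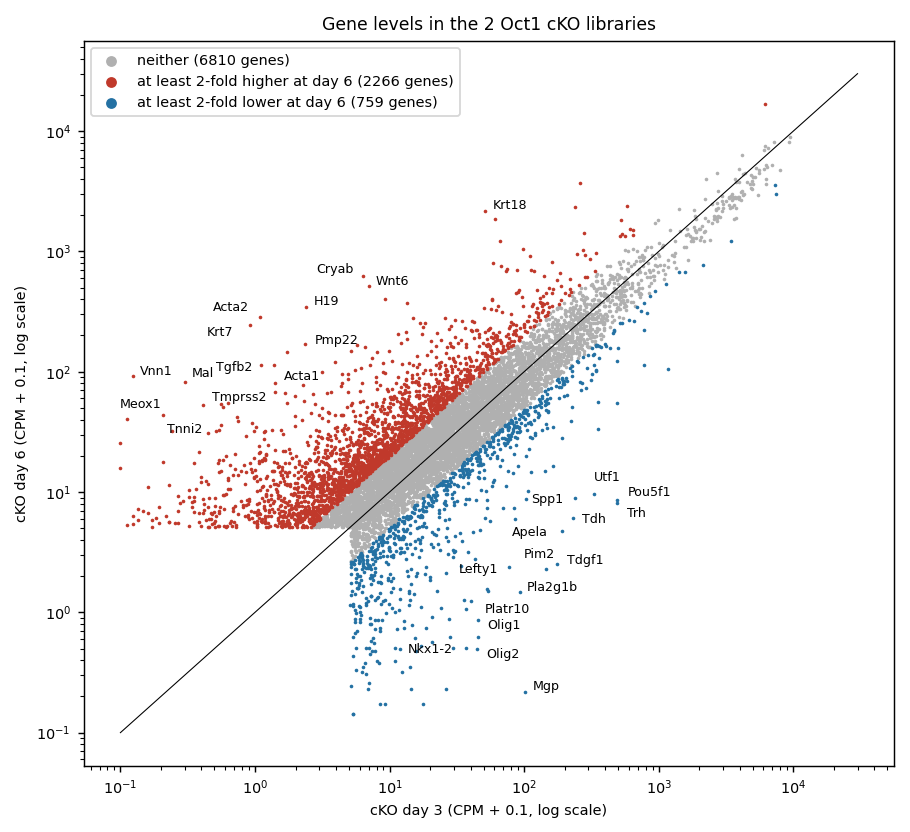
Level of each tested gene in the Oct1_cKO library of day 3 (x axis) and of day 6 (y axis), in CPM plus 0.1 on log scales; red points are the 2266 genes at least 2-fold higher and blue points the 759 genes at least 2-fold lower at day 6, and the line marks equal levels. The labelled genes are among the 15 furthest on each side: Meox1 and Vnn1 sit near 0 on day 3, while Pou5f1, Trh and Utf1 sit above 300 CPM on day 3 and under 10 on day 6.

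Pluripotency genes were lower at day 6 almost throughout. Of 12 genes shared by all pluripotent states, 11 were lower, none higher, and the list's median log2 ratio was −2.94 against 0.26 over all genes. Nanog and Sox2, which with Pou5f1 form the core of the network, stood at 38.3 and 3.08 CPM and at 73.02 and 11.1 CPM, respectively, and Dppa2, a chromatin factor of early embryos, at 53.5 and 1.41 CPM. L1td1, an RNA-binding protein gene, was at 492 and 54.4 CPM, and Trim71, a gene that represses differentiation through messenger RNA decay, differed by under 2-fold at 140.0 and 105 CPM. Of the naive markers, which mark the ground state of mouse stem cells, 11 of 15 passed 5 CPM; 6 were lower and 1 higher, with a median of −1.53. Klf2 stood at 189.6 and 27.9 CPM, Fgf4 at 7.12 and 0.483 CPM and Dppa5a at 355 and 55.8 CPM. Klf5, which also works in epithelia, was the higher one at 14.8 and 114 CPM. Of 14 primed epiblast genes 9 were lower and 2 higher, with a median of −2.30: Fgf5 stood at 10.8 and 0.41 CPM, Otx2 at 12.7 and 0.644 CPM and the methyltransferase gene Dnmt3b at 354 and 33.01 CPM. Pou3f1 (OCT6) differed little, at 169.8 and 152 CPM. Sox4 and Cdh2 (N-cadherin), the 2 higher members, are also used in later mesenchyme and stood at 58.04 and 402 CPM and at 5.82 and 33.3 CPM, respectively. The parental medians were −2.37 for the shared, −1.44 for the naive and −1.98 for the primed genes, but single genes differed between the genotypes. Of the 12 shared genes 5, namely Pou5f1, Sox2, Utf1, Dppa2 and Tdgf1, were at least 2-fold below the parental step and none above it, against 5.34% and 5.53% of all genes. Of these Sox2 had the largest difference, with 77.8 and 111 CPM in parental cells. Of 11 naive genes 4 were above and 4 below the parental step, and of 14 primed genes 2 were above and 4 below.

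Because OCT1 and OCT4 read the same octamer, promoters of the called genes were searched for it. RefSeq promoter windows (build GRCm38.p6, 250 bases before to 50 after a transcription start) existed for 2304 of the 3025 called genes and for 20 of the 30 genes furthest from their day 3 level. The octamer ATGCAAAT, on either strand, was in the windows of 22 of 558 genes lower at day 6 (3.94%), of 29 of 1746 higher genes (1.66%) and of 117 of all 7734 tested genes with a window (1.51%); over all 32851 windows the share was 1.74%. The parental step gave 17 of 401 lower genes (4.24%) and 26 of 1424 higher genes (1.83%). Among the 22 lower genes without Oct1, Gm14124, Gm14139 and Zfp345 on chromosome 2 have nearly the same upstream sequence. The 22 are therefore not all separate occurrences. A match says only that the letters are there. The sequences show where the letters sit in the 4 genes with the lowest ratio that hold an octamer, have a gene symbol of their own and whose 250 upstream bases overlap no annotated exon, a choice made after their values were seen; each is the plus strand, 5′ to 3′, with the octamer or its reverse complement in capitals. Cdx4 (chrX:103321148-103321397), a homeobox gene of the caudal embryo, stood at 9.22 and 0.0732 CPM and holds it 93 bases before the start. Chchd10 (chr10:75932880-75933129), a mitochondrial protein gene, stood at 773 and 114 CPM and holds 2 copies, 83 and 70 bases before. Sfrp2 (chr3:83766071-83766320), a secreted Wnt inhibitor, stood at 16.6 and 3.65 CPM and holds the reverse complement 47 bases before. Zfp296 (chr7:19577037-19577286), a zinc finger gene of pluripotent cells, stood at 10.6 and 2.87 CPM and holds the reverse complement 111 bases before.
Cdx4: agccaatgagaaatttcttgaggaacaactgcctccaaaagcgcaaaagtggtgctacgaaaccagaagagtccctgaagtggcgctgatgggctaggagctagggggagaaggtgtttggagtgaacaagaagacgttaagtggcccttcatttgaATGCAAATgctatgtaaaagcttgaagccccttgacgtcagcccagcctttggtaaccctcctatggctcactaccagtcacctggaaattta
Chchd10: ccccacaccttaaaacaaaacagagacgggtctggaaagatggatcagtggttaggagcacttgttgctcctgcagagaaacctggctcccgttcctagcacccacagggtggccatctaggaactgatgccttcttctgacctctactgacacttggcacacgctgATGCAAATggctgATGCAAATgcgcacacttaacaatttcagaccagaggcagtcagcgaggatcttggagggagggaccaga
Sfrp2: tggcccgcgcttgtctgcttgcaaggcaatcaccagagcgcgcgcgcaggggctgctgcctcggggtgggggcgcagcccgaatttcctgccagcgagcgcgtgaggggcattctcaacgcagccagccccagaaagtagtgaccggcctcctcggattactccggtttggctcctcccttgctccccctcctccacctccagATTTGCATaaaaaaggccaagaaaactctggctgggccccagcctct
Zfp296: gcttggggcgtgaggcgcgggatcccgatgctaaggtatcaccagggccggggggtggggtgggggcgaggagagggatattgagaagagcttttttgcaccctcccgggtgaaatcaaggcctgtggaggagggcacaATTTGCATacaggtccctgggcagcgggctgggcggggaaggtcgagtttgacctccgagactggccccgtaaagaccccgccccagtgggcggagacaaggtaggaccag

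Letters of factors that act in epithelia were counted the same way. GCCNNNGGC, the palindrome read by TFAP2 factors, was in 565 of 1746 higher genes (32.4%), 159 of 558 lower genes (28.5%) and 2298 of all 7734 tested genes (29.7%), so the higher genes held it at about the share of all tested genes. TGANTCA, read by AP-1, was in 119 higher genes (6.82%), 22 lower genes (3.94%) and 400 of all tested genes (5.17%). AACCGGTT, read by Grainyhead-like factors, was in 7 higher genes (0.401%), 1 lower gene (0.179%) and 28 of all tested genes (0.362%), so the higher genes again held it at about the share of all. Wnt6 (chr1:74771642-74771891, plus strand) is shown because, among the 15 genes furthest above their day 3 level, its TFAP2 palindrome (in capitals) lies nearest the start, 12 bases before it.
Wnt6: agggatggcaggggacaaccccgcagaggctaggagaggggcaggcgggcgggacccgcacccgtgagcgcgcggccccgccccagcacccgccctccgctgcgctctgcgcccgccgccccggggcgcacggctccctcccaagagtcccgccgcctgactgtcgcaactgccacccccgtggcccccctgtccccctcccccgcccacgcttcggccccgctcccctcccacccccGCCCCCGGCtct

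Genes of the primitive streak, the first step into mesoderm, were mostly close to their day 3 level or too low to judge. Of 12 members 5 passed 5 CPM, 1 was lower and none higher, with a median of −0.23. T (brachyury), which defines the streak and the early mesoderm, stood at 34.1 and 17.3 CPM, a log2 ratio of −0.98 (95% interval −1.08 to −0.88), just short of 2-fold. Fgf8, a ligand of the caudal embryo, stood at 17.9 and 15.2 CPM, Sp5, a Wnt target, at 34.98 and 54.2 CPM and Wnt3 at 6.89 and 12.5 CPM. Nkx1-2 was the lower gene. Mixl1, Eomes, Evx1, Gsc and Mesp1 stayed under 5 CPM on both days. In the parental libraries 6 of 7 passing members were lower, with a median of −2.73, and T stood at 42.2 and 4.68 CPM. Of the 12 presomitic genes 6 passed, 4 were lower and 1 higher, with a median of −1.11; the defining genes Tbx6 and Msgn1 were at or under 0.513 CPM. The caudal genes Cdx2 and Cdx4 stood at 8.84 and 3.79 CPM and at 9.22 and 0.0732 CPM, respectively, and the Notch ligand gene Dll1, active in presomitic and in neural cells, at 5.63 and 1.98 CPM. Rspo3, the ligand that was also supplied in the medium, was the higher gene at 2.97 and 28.5 CPM.

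Somite genes were higher at day 6 as a list and very unevenly so. Of 13 members 7 passed 5 CPM; 5 were higher, 1 lower, with a median of 5.09 against 4.46 in the parental libraries. Foxc1, a forkhead factor of presomitic and somitic mesoderm, stood at 0.428 and 17.3 CPM and Pax3, which marks dermomyotome but also dorsal neural tube, at 0.606 and 20.7 CPM. Aldh1a2, the enzyme that makes retinoic acid in somites, was at 0.226 and 10.4 CPM. Tcf15 (paraxis), the epithelial somite factor, was already present on day 3 and differed by under 2-fold, at 34.9 and 56.3 CPM, and Fst (follistatin) was the lower member at 198 and 79.1 CPM. Genes of later somite derivatives hardly appeared: of 11 dermomyotome and muscle genes only Pax3 passed, with Myod1 and Myog at 0 on day 6. In parental cells 3 passed, all higher: Pax3 stood at 1.04 and 50.96 CPM, Pax7, a gene of muscle progenitors, at 0.0129 and 10.7 CPM and Lbx1, a gene of migrating muscle precursors, at 0.0129 and 6.86 CPM, while without Oct1 Pax7 stood at 0 and 0.483 CPM and Lbx1 at 0.0713 and 1.58 CPM. Of 8 sclerotome genes, the vertebral part, only Sox9 and Mfap4 passed, at 2.83 and 21.4 CPM and at 4.54 and 14.7 CPM, respectively. Of 12 lateral plate and heart genes 2 passed, both higher, among them Bmp4, a BMP ligand gene, at 1.62 and 55.02 CPM.

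Mesenchymal and contractile genes were higher together. Of 12 genes of the epithelial to mesenchymal transition 11 passed and 10 were higher, none lower, with a median of 2.46 (2.39 in parental). Twist1 stood at 7.37 and 40.8 CPM, fibronectin (Fn1) at 40.2 and 221 CPM, vimentin (Vim) at 153 and 492 CPM and the matrix protein gene Sparc at 88.2 and 707 CPM; Snai1, a repressor of E-cadherin, was under 2-fold at 3.09 and 6.02 CPM. Of 12 genes of smooth and cardiac contraction 8 passed and 6 were higher, with a median of 3.67 (3.17 in parental). Tagln, an actin-binding protein, stood at 117 and 689 CPM, Cald1 (caldesmon) at 74.3 and 713 CPM, Actc1, the cardiac actin, at 1.12 and 20.3 CPM and Myl4, an atrial and embryonic light chain, at 1.32 and 22.3 CPM. Collagen and laminin genes lay on the same side, 10 of 10 passing members higher with a median of 2.76: Col4a1 and Col4a2, the basement membrane collagen chains, stood at 10.3 and 122 CPM and at 4.303 and 95.1 CPM, respectively, and Col1a2 at 2.86 and 43.8 CPM. Embryonic globins were not detected: Hba-x and Hbb-bh1 had 0 UMIs in both Oct1_cKO libraries, while the parental day 6 library had 177 and 50.6 CPM. The 3 counts that stand for a 0 equal 0.0357 CPM on day 3 and 0.0439 CPM on day 6 in Oct1_cKO, which is no upper limit.

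Epithelial genes were higher in 3 lists. Of 16 surface ectoderm genes 12 passed and 8 were higher, none lower, with a median of 4.73. Krt8, the partner of Krt18 in the keratin filament, stood at 60.3 and 1861 CPM, Krt19 at 9.21 and 402 CPM, and Tfap2a, a factor that sets up surface ectoderm, at 0.725 and 16.6 CPM. Dlx3 and Gata3, both transcription factor genes of surface ectoderm and of trophoblast, stood at 0.1902 and 8.39 CPM and at 0.618 and 5.199 CPM, respectively. Cdh1 (E-cadherin) and Epcam, surface proteins that stem cells share with epithelia, differed by under 2-fold at 71.9 and 95.9 CPM and at 545 and 476 CPM, respectively. All 11 passing late epithelial genes, of 14, were higher, with a median of 3.08: the cross-linking enzyme gene Tgm1 stood at 1.57 and 66.7 CPM, desmoplakin (Dsp) at 3.83 and 119 CPM, Perp, a desmosomal protein, at 25.5 and 282 CPM, Sfn (stratifin) at 56.6 and 332 CPM and annexin A1 (Anxa1) at 4.85 and 86.1 CPM. The basal keratins of stratified skin were absent, with Krt5 at 0.0439 and Krt14 at 0.117 CPM on day 6, and Trp63, the master gene of that layer, at 1.23 CPM. All 12 junction genes passed and 10 were higher, with a median of 2.03: Cldn3 stood at 13.2 and 213 CPM, F11r at 26.6 and 159 CPM, cingulin (Cgn) at 12.4 and 65.4 CPM and Tjp3 at 2.75 and 17.9 CPM. Of 12 trophoblast genes 6 passed 5 CPM, 2 higher and 2 lower, and only Krt7 reached 20 CPM. Members that did not pass included Elf5 at 0.234 CPM and Prl3d1 and Tpbpa at 0 on both days. With each cell thinned to 10000 UMIs, 1.61% of day 3 and 12.1% of day 6 cells had at least 2 of the 12 genes, Krt7 among them.

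Wnt ligand genes were mostly higher, while genes that answer to Wnt had no common direction. Of 10 ligands 7 passed, 4 were higher and 2 lower, with a median of 5.03. Besides Wnt6, Wnt4 stood at 3.05 and 99.9 CPM, Wnt10a at 0.642 and 39.01 CPM and Wnt7b at 0.143 and 32.3 CPM, ligands that epithelia make; Wnt8a, a ligand of the streak stage, stood at 27.6 and 0.776 CPM and Wnt5b at 5.84 and 2.49 CPM. Of 12 response genes 10 passed, 2 were higher and 3 lower, with a median of −0.20. Axin2, the most widely used readout of the pathway, stood at 15.05 and 19.7 CPM. The feedback inhibitor genes Notum and Nkd1 were higher, at 0.8202 and 17.2 CPM and at 4.65 and 17.4 CPM, respectively. Lef1, which partners with beta-catenin, and the cyclin gene Ccnd1 were lower, at 59.5 and 12.6 CPM and at 111 and 28.5 CPM, respectively, and so was Sp8, at 7.02 and 0.805 CPM.

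BMP response genes were higher at day 6; both days fall in the medium with the BMP receptor inhibitor. Of 10 members 6 passed and 5 were higher, with a median of 3.16 (2.58 in parental). Id1, Id2 and Id3, direct targets that block differentiation factors, stood at 7.29 and 129.6 CPM, at 13.4 and 185 CPM and at 84.1 and 219 CPM, respectively. The homeobox gene Msx2 was at 0.4398 and 6.56 CPM and Bambi, a decoy receptor, at 8.43 and 48.7 CPM. Smad7, an inhibitor in the same list, stayed level at 31.1 and 29.7 CPM. Among the Smad genes, which carry the signal to the nucleus, 1 of 6 passing members was higher, Smad3 at 4.17 and 14.4 CPM. Of all tested genes 23% were higher, so this count is no lean of the Smad genes. Readouts of FGF and ERK signalling leaned the other way: of 12 members 5 were lower and 1 higher, with a median of −0.97. Etv4 and Etv5, transcription factors induced by FGF, stood at 34.4 and 3.85 CPM and at 47.02 and 4.701 CPM, respectively, and Spry4, a feedback inhibitor, at 9.81 and 1.07 CPM, while its relative Spry1 was higher at 4.695 and 18.3 CPM. Dusp6, the ERK phosphatase, stayed at 36.5 and 33.6 CPM.

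Retinoic acid genes had 5 of 7 passing members higher, none lower, with a median of 2.25 (4.34 in parental). Stra6, a retinol uptake receptor, was at 0.285 and 5.51 CPM, and Crabp1, which binds retinoic acid in the cell, at 5.21 and 24.8 CPM. Of 12 Notch and somite clock genes 7 passed, 3 higher and 1 lower: Notch3 stood at 8.86 and 29.9 CPM and Hes1 at 40.1 and 87.95 CPM, and the clock gene Hes7 stayed under 5 CPM at 0.511 and 1.46 CPM.

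Hox genes, which give cells their position along the body axis, were higher up to paralog group 9 and no further. In groups 1 to 4, 5 of 6 passing genes were higher, with a median of 2.41: Hoxb2 stood at 4.39 and 31.8 CPM, Hoxb4 at 0.2496 and 17.5 CPM and Hoxb1 at 3.05 and 11.96 CPM. In groups 5 to 9 all 6 passing genes, of 15, were higher, with a median of 4.57: Hoxa5 stood at 3.03 and 12.9 CPM, Hoxb9 at 0.392 and 6.75 CPM, Hoxd9 at 0.166 and 6.82 CPM and Hoxc9 at 0.0357 and 5.799 CPM. The 15 genes summed to 7.04 CPM on day 3, and none reached 5 CPM there. Each passing gene thus passed through day 6 alone and could not have been called lower. Of all tested genes 23% were higher. In groups 10 to 13, none of 12 genes reached 5 CPM on either day, the highest on day 6 being Hoxc13 at 1.26 CPM.

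Neural genes gave no common direction in the Oct1-deficient cells. Of 17 neural progenitor genes 10 passed, 4 were higher and 3 lower, with a median of 0.57, near that of all genes; in the parental libraries 16 passed and 13 were higher, with a median of 3.53. Crabp1 and Crabp2, the latter at 31 and 63.5 CPM, and Fabp7, a fatty acid carrier of neural progenitors, at 4.09 and 12.3 CPM, were higher, while Sox2, Sox3 and Olig2 were lower. Pax6, which specifies neural progenitors, stayed under 1 CPM at 0.713 and 0.351 CPM and reached 38.04 CPM in the parental day 6 library. Of 12 young neuron genes only Tubb3 and Stmn2 passed, at 30.03 and 8.14 CPM and at 181 and 248 CPM, respectively. Of the other POU genes, Pou2f3, the tuft cell factor, stood at 14.2 and 0.249 CPM, and Pou3f2 and Pou3f3, neural factors, stayed under 5 CPM at 0.321 and 2.46 CPM and at 0.0594 and 0.659 CPM, respectively.

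Proliferation genes were at or below their day 3 level. Of 15 S phase genes 6 were lower and none higher, with a median of −0.82 (−0.19 in parental): the replicative helicase genes Mcm5, Mcm2 and Mcm3 stood at 154 and 60.01 CPM, at 129.7 and 53.2 CPM and at 196 and 84.2 CPM, respectively, and Ung, a repair glycosylase, at 72.2 and 24.5 CPM. None of 13 mitotic genes passed 2-fold, with a median of −0.49; Top2a stood at 291 and 174 CPM. Of 10 cyclin and inhibitor genes 6 were higher and 1 lower, the higher ones being mostly inhibitors of cyclin-dependent kinases: Cdkn1a (p21) at 135 and 372 CPM, Cdkn2a (p16 and p19) at 28.1 and 172 CPM, Cdkn2b (p15) at 4.45 and 43.7 CPM and Cdkn1c (p57) at 28.6 and 112 CPM. Of 11 p53 targets 10 passed and 6 were higher, none lower, with a median of 1.23 against 0.20 in the parental cells, where none passed 2-fold. Mdm2, the ligase that degrades p53, stood at 62.7 and 188 CPM, Btg2 at 53.97 and 224 CPM and Ccng1 at 127 and 309.8 CPM; Cdkn1a in parental cells stood at 121 and 139 CPM. Immediate early genes, which answer quickly to stimuli and to cell dissociation, were higher in 7 of 10, with Fos at 12.4 and 60.6 CPM and Ier3 at 13.2 and 87.1 CPM. Both libraries were harvested with trypsin, and a part of dissociation in these levels was not tested.

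One-carbon enzymes and DNA methylation genes were mostly lower. Of 10 passing threonine and one-carbon enzymes 7 were lower and none higher, with a median of −1.45: Mthfd1, a folate enzyme, stood at 146 and 36.6 CPM and Psat1, of serine synthesis, at 119.7 and 29.7 CPM. The integrated stress response had 5 of 12 lower and 1 higher, Atf3 at 11.2 and 56.7 CPM; Chac1, a glutathione-degrading enzyme gene, stood at 7.24 and 1.26 CPM. Slc2a1, the basal glucose transporter, stood at 281 and 938 CPM and Vegfa at 2.48 and 18.3 CPM, 2 of 3 higher genes among 13 of hypoxia and glycolysis. Of the rest 1 was lower and 9 differed by under 2-fold. Higher members were thus about as frequent as among all tested genes (23%), and the list's median was 0.21 against 0.26 over all genes. Of 7 passing DNA methylation genes 4 were lower, Dnmt3l, the cofactor of de novo methylation, at 52.6 and 1.46 CPM, and Tet3, an oxidase of methylcytosine, was higher at 5.74 and 26.9 CPM. Of 12 passing imprinted genes 7 were higher and 2 lower: Mest stood at 50.3 and 336 CPM, Peg10 at 27.6 and 225 CPM and Dlk1 at 2.33 and 26.1 CPM. Of 10 Polycomb genes 8 differed by under 2-fold, with Ezh2 at 151 and 120.3 CPM. None of 8 housekeeping genes passed 2-fold, and their median was 0.02, which became −0.22 with TMM factors.

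**Figure D2:**
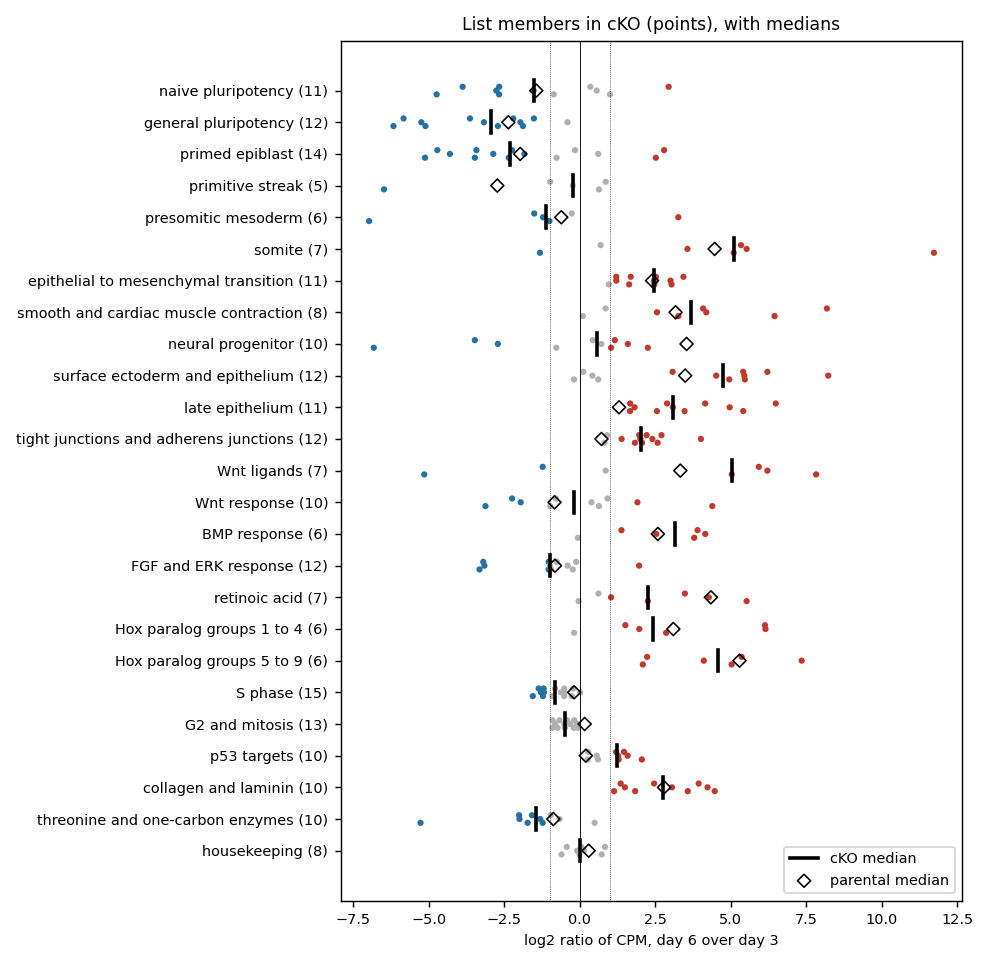
Log2 ratio of day 6 over day 3 in the Oct1_cKO libraries for each member with at least 5 CPM on either day (points), by gene list with the number of such members in brackets; bars are Oct1_cKO medians, diamonds parental medians, dotted lines mark 2-fold, and red and blue points lie past it. Surface ectoderm, somite, Wnt ligand and Hox 5 to 9 medians lie above 4, and that of general pluripotency genes lies at −2.94.

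The step from day 3 to day 6 was then set beside the same step in the parental cells, 948 cells on day 3 and 1546 on day 6. There, 1844 of 10058 tested genes (18.3%) were higher at day 6 and 544 (5.41%) lower. Of 9500 genes tested in both, 1302 were higher in both genotypes, 412 lower in both, 739 higher in the Oct1-deficient cells with a parental difference under 2-fold, 311 lower likewise, and 11 lower there but higher in parental; none was higher there and lower in parental. Across those genes, which are not independent, the log2 ratios of both steps had a Pearson correlation of 0.873, a description only. The change in Oct1_cKO exceeded the parental change by at least 2-fold in 575 of 10390 genes (5.53%) and fell short of it by at least 2-fold in 555 (5.34%). Genes with no UMI in either library of a genotype are left out. These differences of ratios carry counting error only.

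Among the 8 genes whose step was most above the parental one were the Wnt ligand genes Wnt6 and Wnt10a and the growth factor gene Fgf8. Pomc, the precursor of melanocortins and of ACTH, stood at 4.28 and 76.4 CPM in Oct1_cKO against 4.06 and 8.83 CPM in parental cells, a difference of log2 ratios of 3.04 (95% interval 2.79 to 3.29). Wnt6 stood at 5.55 and 62.3 CPM in parental cells, a difference of 2.72 (95% interval 2.54 to 2.91), and Wnt10a at 0.463 and 6.26 CPM, a difference of 2.17 (95% interval 1.54 to 2.79). Cd9, a tetraspanin of the cell surface, stood at 65.5 and 1225 CPM against 76.1 and 221 CPM. Fgf8 and Sp5 are in this group because the parental level was lower at day 6, at 49.98 and 7.52 CPM and at 43.3 and 12.5 CPM, respectively, while the Oct1-deficient level differed by under 2-fold. Tchh (trichohyalin, a hair follicle protein gene) stood at 24.4 and 77.2 CPM against 17.7 and 9.14 CPM, and Neat1, the noncoding RNA of paraspeckles, at 19.7 and 76.6 CPM against 19.8 and 14.5 CPM. By list, 10 of 11 late epithelial genes, 9 of 12 surface ectoderm genes and 7 of 12 junction genes exceeded the parental step by at least 2-fold. Of all genes 5.53% did so. Their median differences were 1.56, 1.39 and 1.23 against 0.02 over all genes. The lists and their members were chosen with earlier results of these data known, so these counts describe the lists and lend no separate support. For such differences 5 CPM in any of the 4 libraries was enough. In parental cells 9 of the 12 surface ectoderm and 11 of the 12 junction genes passed, so the rest entered through Oct1_cKO alone.

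Among the 8 genes whose step was most below the parental one were Pax6, Hes5 and Crabp1, all used in neural progenitors. Pax6 gave a difference of −5.36 (95% interval −6.09 to −4.64), Hes5, a Notch effector, stood at 0.654 and 3.91 CPM against 0.604 and 88.4 CPM, and Crabp1 stood at 10.6 and 739 CPM in parental cells, a difference of −3.88 (95% interval −4.06 to −3.70). The neural noncoding RNAs Mir124-2hg, host of a neuronal microRNA, and Pantr1, beside Pou3f3, stood at 0.464 and 0.571 CPM against 0.527 and 40.7 CPM and at 0.107 and 0.805 CPM against 0.18 and 58.5 CPM. Pou3f3 itself reached 24.2 CPM in parental cells, a difference of −4.60 (95% interval −6.31 to −2.89). Stmn3, a neuronal stathmin, and Sfrp2 were lower at day 6 without Oct1, at 20.7 and 0.8201 CPM and at 16.6 and 3.65 CPM, respectively, and stood at 16.5 and 19.8 CPM and at 22.8 and 87.97 CPM in parental cells. All 16 passing neural progenitor genes fell short of the parental step by at least 2-fold, with a median difference of −3.02. Of all genes 5.34% did so, and this list too was chosen with earlier results known. Only 10 of these 16 passed 5 CPM in the Oct1_cKO libraries. The others entered through their parental level alone, so the count and the median lean towards genes high in parental cells. The 9 somite genes had a median difference of −0.06, with 1 above and none below 2-fold, and the 12 mesenchymal transition genes one of −0.71, with 1 on each side. Of 3 dermomyotome and muscle genes Pax7 and Lbx1 were at least 2-fold below the parental step, with levels resting on 1 UMI each on parental day 3. Both passed 5 CPM only through the parental day 6 library.

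**Figure D3:**
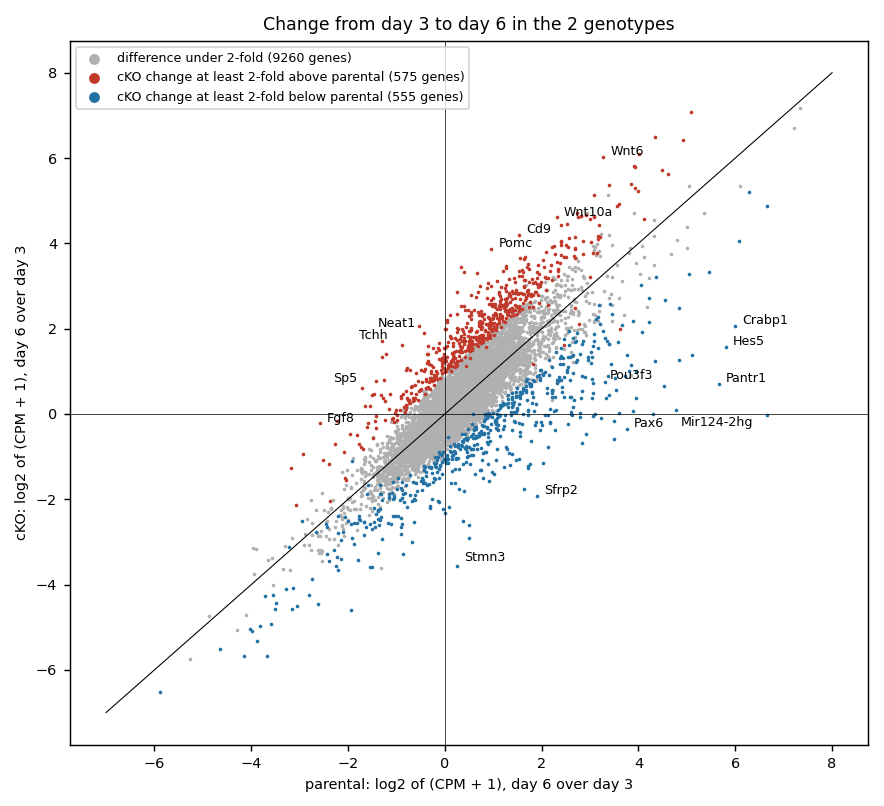
Log2 ratio of day 6 over day 3 (with 1 CPM added to each level) in parental cells (x axis) and in Oct1_cKO cells (y axis), 1 point for each of 10390 genes; the line marks equal steps. Red marks the 575 genes whose Oct1_cKO step was at least 2-fold above the parental one and blue the 555 at least 2-fold below; the labelled neural genes, Mir124-2hg, Pantr1 and Pax6 among them, lie furthest below the line.

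Shares of cells were compared after thinning each cell to 10000 UMIs, which left out 34 cells on day 3 and 558 on day 6, so that 992 and 1092 cells remained. The loss on day 6 was uneven over the clusters described below. Of the epithelium-like cells 277 of 279 reached that depth, against 41 of 151 in cluster 6, which showed neural and somite markers, and 55 of 303 in cluster 1. Day 6 shares therefore give deep groups, the epithelium-like one among them, more weight than among all kept cells. Cells with at least 2 general pluripotency genes made up 99.3% on day 3 and 48.4% on day 6 (99.4% and 57.3% in parental cells). Trim71 and L1td1, the named members with the highest day 6 levels, are enough to count a cell. The day 6 value is therefore not a share of pluripotent cells, and the pluripotent-like cluster held 2% of day 6 cells. For the late epithelial list the shares were 46.4% and 79.5%, where parental cells had 31.3% and 27.9%, and for the junction list 52.6% and 84.7%, against 55.4% and 50.2%. The surface ectoderm list gave 76.1% and 86.1%, against 64.9% and 37.8%, and Epcam and Cdh1, which stem cells share, were present on day 3. In parental cells these 3 lists have lower shares on day 6 although their CPM medians were higher, and at 3000 UMIs the parental shares turn, to 10.3% and 20.2% for the late epithelial, 10.1% and 18.1% for the junction and 24.3% and 30.1% for the surface ectoderm list, so no order of days is read from them. Cells with at least 2 Wnt ligand genes were 4.64% and 50% (5.90% and 11.7% in parental). BMP response gave 19.96% and 70.8% (27.3% and 58.5% in parental) and contraction 21.9% and 57.2% (16.4% and 53.6%). The list of Hox groups 1 to 4 gave 3.02% and 19.6%, against 11.5% and 51.1% in parental cells, and Hox groups 5 to 9 gave 0.504% and 10.1%, against 1.53% and 25.4%, so both parental day 6 shares were over 2 times those without Oct1. The somite list gave 14.1% and 21.2%, and Tcf15 and Fst were already present on day 3; the parental shares were 21.0% and 29.2%. For the primitive streak list the shares were 23.3% and 10.2%, against 36.2% and 2.98% in parental cells. Neural progenitor shares, 56.0% and 24.3%, go against the sign of that list's median and are not read as an order.

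**Figure D4:**
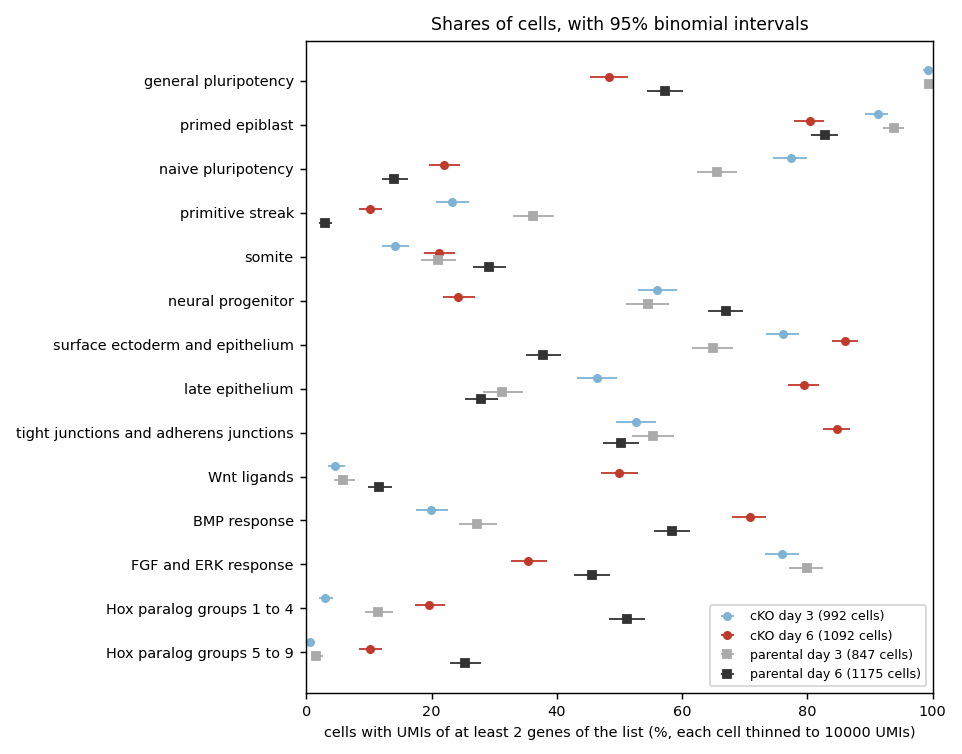
Percent of cells with at least 2 genes of a list after thinning every cell to 10000 UMIs, on day 3 and day 6, for Oct1_cKO and parental cells, with exact 95% binomial intervals for counting error. The late epithelial and Wnt ligand shares of Oct1_cKO cells lie at 79.5% and 50% on day 6, to the right of the parental day 6 shares of 27.9% and 11.7%.

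On day 6 a smaller share of the cells with somite genes than of the other cells had epithelial genes, although many had both. Of the 231 thinned day 6 cells with at least 2 somite genes, 111 (48.1%) also had at least 2 surface ectoderm genes, against 96.3% of the other cells, and 33.8% had at least 2 late epithelial genes, against 91.8%. Free RNA and doublets remain in these cells, and their part in the cells with both was not tested. Neural progenitor genes went the other way, in 46.8% of the cells with somite genes and 18.2% of the others. Any 2 genes of a list count a cell, such as Crabp1 and Crabp2 in the neural list or Tcf15 and Fst in the somite list. The 46.8% is therefore not a share of somite cells with a neural program. On day 3 the 140 cells with somite genes had surface ectoderm genes in 71.4%, against 76.9% of the rest.

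Clustering the day 6 cells alone (Leiden, resolution 0.8) gave 9 clusters, which are a description since the same counts formed them. A cluster was named when over 50% and at least 3 of the fixed markers of 1 class were at least 2-fold above the rest with at least 5 CPM, no other class had over 50% of its markers so, and no other class had as many genes among the 10 leading genes, unless none of those belonged to another class. A cluster whose median UMI count times 3 was under the library's, with none of its markers among the leading genes, stayed unnamed; the rule was set after the data were seen. By this rule 3 clusters were named: a somite-like cluster, cluster 4, of 221 cells (13.4%, interval 11.8 to 15.1), a surface ectoderm and epithelium-like cluster, cluster 2, of 279 cells (16.9%, 15.1 to 18.8) and a pluripotent-like cluster, cluster 9, of 33 cells (2%, 1.38 to 2.80). The somite-like cells showed 7 of 7 markers and were led by Col26a1, Tcf15, Fst and Meox1. They held 86.5% of all Meox1 UMIs, at 187 CPM against 0.347 in the epithelium-like cells, and Foxc1 at 70.4, Pax3 at 79.98 and Hoxb9 at 22.1 CPM. Krt18 was at 358 CPM there, of the order of the 524 CPM in the pluripotent-like cells.

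The epithelium-like cells showed 5 of 9 markers, Krt8, Krt18, Krt7, Krt19 and Cdh1, but none of these was among their 10 leading genes, which began with Serpinb9b, Plaur, Ier3, Acta1 and Hbegf. Krt18 was at 4035 CPM, and they held 44.9% of Wnt6 UMIs at 778 CPM, with Krt8 at 3306 and Klf5 at 187 CPM. Cluster 3, 262 cells (15.9%) led by the mitotic genes Nusap1, Hmmr and Ube2c, had levels of the same kind, with Krt18 at 2325 and Wnt6 at 746 CPM, but stayed unnamed by the rule. Clusters 2 and 3 held 54.7% and 30.4% of Krt18 UMIs. Cluster 7, 143 cells (8.67%) led by Tnc, Crct1, Acta2, Cxcl14 and Sox17, held 51.3% of Acta2 UMIs at 1438 CPM, yet only 21.7% of its cells had an Acta2 UMI, so few cells carried very high levels. It showed 6 of 6 smooth muscle and mesenchyme markers and stayed unnamed because its leading genes held 1 of them and 2 fibroblast markers. Type I collagen Col1a1 was at 80.9 CPM in this cluster and at 44.96 CPM in the somite-like one.

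Cluster 8, 78 cells (4.73%), was led by Pomc, Car3, T, Psmb8 and Shh. It showed 3 of 5 presomitic markers and stayed unnamed because it also showed 4 of 7 neuromesodermal ones. It held 88.7% of Pomc UMIs at 1869.8 CPM, in 42.3% of its cells, 80.9% of T UMIs at 385 CPM, 57.5% of Fgf8 UMIs at 242 CPM and 94.8% of Shh UMIs at 81.6 CPM. Shh is the ligand of notochord and floor plate, and T marks both the streak and the notochord; Noto, a defining notochord gene, was at 0.0439 CPM in the whole library and Foxa2 at 1.64 CPM. Thus the T, Fgf8 and Pomc levels of the whole day 6 library came largely from 78 cells. The pluripotent-like cells held 74.0% of the remaining Pou5f1 UMIs at 322 CPM, against 3.73 CPM or less in the other clusters, and 97.1% of Dppa5a UMIs at 2754 CPM; 51.5% of these 33 cells had under 1% mitochondrial UMIs. Across the clusters Cdkn1a lay between 249 and 488 CPM.

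Clusters 1, 5 and 6 (303, 180 and 151 cells) were shallow, with median UMIs of 4818, 5209 and 5845, and carried 3%, 1.96% and 2.67% of the UMIs. In clusters 1 and 5, 79.5% and 86.7% of cells had under 1% mitochondrial UMIs. Cluster 6 showed 7 of 7 neural markers together with 5 of 7 somite markers, with Crabp1 at 565, Hes5 at 120.3 and Meox1 at 141 CPM, and stayed unnamed for that overlap. It held 82.0% of Hes5 UMIs, but Hes5 was seen in 6.62% of its cells.

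**Figure D5:**
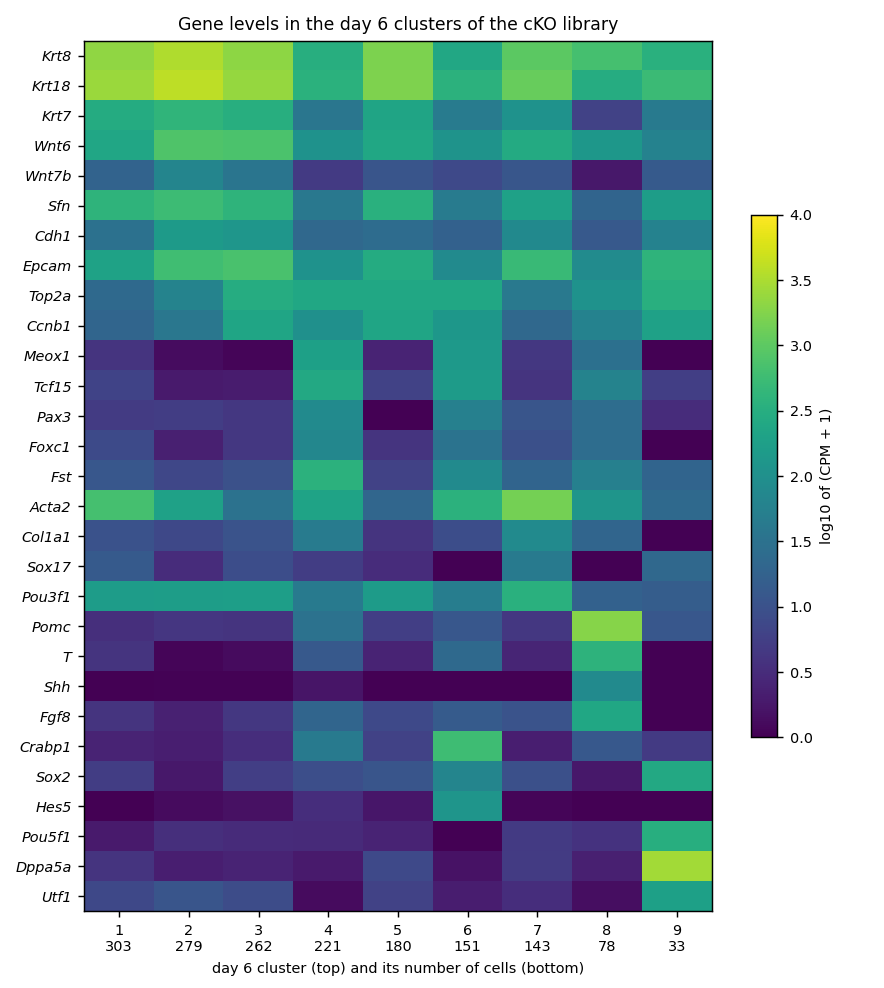
Level of marker genes (rows) in the 9 clusters of the Oct1_cKO day 6 cells (columns), as log10 of CPM plus 1, with the number of cells in each cluster. Meox1 and Tcf15 are high in clusters 4 and 6, Krt18 and Wnt6 in clusters 2 and 3, Pomc, T and Shh in cluster 8, and Pou5f1 and Dppa5a in cluster 9.

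Of the 10 clusters of day 3 cells only 1, neural-like with 23 cells (2.24%), met the naming rule; Fabp7 was at 113 CPM there and it held 70.6% of Fabp7 UMIs. Pou5f1 was between 273 and 559 CPM in every cluster, and Krt18 between 19.998 and 175 CPM. T was highest in cluster 5 (128 cells), at 80.9 CPM, and present in the largest cluster at 31.1 CPM. Cluster 6 (92 cells), led by Ltb and Stmn4 with Tagln and Sfn, held 46.3% of the day 3 Wnt6 UMIs at 31.6 CPM. Cluster 8 (52 cells) was led by Otx2 at 58.96 CPM, with Fgf5 at 32.4 CPM. Cluster 3 (147 cells, 14.3%), led by Nupr1, Spp1, Lgals3 and S100a6, held 86.3% of Spp1 UMIs at 2209 CPM and 99.4% of Mgp UMIs at 1096 CPM, the latter in 5.44% of its cells, and 94.7% of Col1a1 UMIs in 4.08% of its cells. The lower Mgp level at day 6 thus rests on few day 3 cells with high counts. In this cluster 87.8% of cells had under 1% mitochondrial UMIs, and a part of cell quality in its genes was not tested. At resolution 1.2, 24 day 3 cells formed a cluster led by Mgp, S100a4, Mmp3, Grem1 and Spp1. They showed 5 of 6 smooth muscle and mesenchyme markers and 0.667 of the fibroblast ones, and where these cells came from was not tested.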

How the data were processed

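Single-cell 5′ RNA libraries were counted by the authors with Cell Ranger 3.1.0, per the file headers, against mm10, per the submitters' processing notes; the deposited matrices hold raw UMI counts for 31053 genes. Barcodes with under 1000 genes or over 10% mitochondrial UMIs were left out. UMI counts were summed per library and expressed per 1000000 (CPM). Each group is 1 library, so no test was run and no p-value is given. Levels have exact Poisson, ratios exact conditional binomial and shares Clopper-Pearson 95% intervals; differences between steps have intervals from the Poisson error of the 4 sums. A gene was called where the libraries differed by 2-fold or more and the higher one reached 5 CPM. A 0 stands at 3 counts. A gene under 5 CPM in 1 library enters only through the other library and can be called in that direction only. Intervals cover counting error only. The scripts were tested on simulated data.

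Gene lists, members and rules were chosen with earlier results of these data known. Named by rule were Pou2f1, the 15 highest and 15 lowest ratios (with 1 CPM added) among genes with at least 20 CPM and UMIs in 5% of cells, the 8 highest and 8 lowest differences from parental, and up to 4 extreme members and the most abundant member of each of 48 lists; other genes were named after their values were seen. Clusters used 2000 variable genes, 30 components, 15 neighbours and Leiden at 0.8 (scanpy 1.11.5, igraph 0.11.9, Python 3.11.15). TMM factors came from edgeR 4.0.16, used for scaling only. Gene positions are from GENCODE annotation of the same build. Alternatives tried were other scalings, cell filters, level minima, thinning, doublet removal and cluster settings. The stem cell stage was not analysed here. Some genes that the naming rule selects are not reported here.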

Additional observations from a re-analysis of the deposited data

Results flagged for a closer look

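In 11 genes the level was at least 2-fold lower at day 6 in the Oct1-deficient cells and at least 2-fold higher in the parental cells; with 1 library per group this difference between genotypes was not tested. Several of the 11 are genes of neurons and neural progenitors. Tubb3, the neuronal tubulin, stood at 30.03 and 8.14 CPM on days 3 and 6 without Oct1 and at 46.1 and 144 CPM in parental cells, a difference of log2 ratios of −3.53. Sfrp2, a secreted Wnt inhibitor, differed by −4.13, and Dll1, the Notch ligand, by −3.94, from 5.63 and 1.98 CPM without Oct1 against 2.404 and 12.9 CPM in parental cells. Nefm, a neurofilament subunit, stood at 20.8 and 8.30 CPM against 7.52 and 18.9 CPM, a difference of −2.66. Ebf1, a transcription factor of several lineages, stood at 21.1 and 9.42 CPM against 6.98 and 21.0 CPM, a difference of −2.75. Igfbpl1 differed by −3.49, Celsr2, a planar polarity cadherin, by −3.45, Nova2, a neuronal splicing factor, by −3.17, and Fmn2, a formin, by −3.14. The histone gene Hist3h2ba differed by −2.62 and the septin gene Sept3 by −2.46. No gene went the opposite way, 2-fold higher without Oct1 and 2-fold lower in parental cells.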

How the results depend on the processing

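No paired analysis was possible because each group holds 1 library, and no replicate could be left out. Of 2266 genes higher and 759 lower at day 6, a minimum of 20 CPM left 1224 and 428, and no minimum gave 5913 and 3228. TMM and median-of-ratios scaling, which moved the median log2 ratio from 0.26 to −0.00347 and −0.0279, gave 1202 and 1243 lower genes. The genes above and below the parental step, 575 and 555, numbered 301 and 203 at 20 CPM. Of 167 named genes that passed 2-fold, 159 to 167 kept it in the same direction under each of 10 alternatives. The level minima do not enter a gene's ratio, so all 167 were bound to keep it there. Doublet removal, also with 167, took out only 2 Oct1_cKO cells on day 3 and 1 on day 6. Under the remaining alternatives 159 to 166 genes kept it. Among list medians past 2-fold, that of the presomitic genes changed sign, to 3.26 at 20 CPM, where 1 member was left. Medians within 2-fold changed sign under some alternatives for the primitive streak, neural progenitor, young neuron, trophoblast, Wnt response, hypoxia and housekeeping lists. Cluster shares depended most on the settings. The pluripotent-like share of 2% was 1.21% at resolution 1.2, 0.606% with 1000 variable genes, 7.89% with a stricter cell filter and 0.801% in cells with at least 1% mitochondrial UMIs, an alternative added after the data were seen. At resolution 0.4 the name went to another 22 cells (1.33%) with 4 of 7 markers, led by Gpnmb and Trim63, while Nanog and Dppa5a stood out in an unnamed cluster, so that value is not of the same cells. The somite-like share of 13.4% was 20.97% at resolution 1.2 and 20.04% in those cells, and no cluster met that name at resolution 0.4 or under the stricter filter. The epithelium-like name was met at none of the other cluster settings. Of 96 shares of cells, 91 moved beyond counting error when cells were thinned to 3000 rather than 10000 UMIs, so shares hold only for the stated depth. Shallow day 6 cells and doublets limit the clusters.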

Other observations

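Some gene groups not described above also differed between day 3 and day 6 in the Oct1-deficient cells. Of 11 genes used for extraembryonic endoderm 4 passed 5 CPM and all 4 were higher: Dab2, an endocytic adaptor, at 1.15 and 24.6 CPM, Lamb1, a laminin chain, at 26.2 and 93.5 CPM, with Sparc and Col4a1. These 4 are also made by other epithelia and mesenchyme. The 7 other members stayed under 5 CPM, among them Sox7 and Afp at 0 and Ttr at 0.0146 CPM on day 6. Of 11 definitive endoderm and axial genes 3 passed, 2 higher and 1 lower, with a median of 4.16 (2.71 in parental). With 1000 variable genes, 19 day 6 cells formed an unnamed cluster with 3 of 6 axial and endoderm markers, Foxa2, Sox17 and Foxa1. Among 8 YAP target genes 6 passed and 3 were higher, Amotl2 at 26.4 and 105 CPM; Ctgf stood at 44.04 and 25.5 CPM and Cyr61 at 48.9 and 90.2 CPM. Germ cell genes were low, with Ddx4 at 6.99 and 0.41 CPM and Sycp3 at 4.81 and 0.103 CPM.

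Of 8 neural crest genes 4 passed, 3 higher and 1 lower: Ets1 stood at 1.99 and 13.05 CPM, Snai2 at 0.618 and 5.07 CPM and Foxd3, an early crest and epiblast gene, at 5.11 and 0.146 CPM, while the defining crest gene Sox10 was at 0.454 CPM on day 6. Of 10 genes listed for feeder fibroblasts 5 passed, 4 higher and 1 lower, the lower being Mgp. Dcn (decorin) stood at 3.36 and 16.7 CPM and Col3a1 at 0.963 and 18.1 CPM. Over chromosomes, the median log2 ratio lay between 0.15 and 0.41.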
